A study of Homo sapiens with 4 samples.

Results

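DNA replication genes were followed as a module of 49 named genes, which cover origin licensing, the replicative helicase, the polymerases, the clamp and its loader, nucleotide supply, chromatin assembly and entry into S phase. They were chosen by symbol and not by a filter on their values, though with earlier results of these data known. All 49 were among the 17902 genes of the deposited table. All 49 also passed the filter on low counts, which left 16194 genes for testing. The cells were LNCaP, a human prostate cancer line that grows in response to androgen. Control libraries (genotype WT, replicates 1 and 2) were compared with ETV5_OE libraries (genotype ETV5 overexpression, replicates 1 and 2), whose cells were made to express more of ETV5, an ETS transcription factor of the PEA3 family. The labels name neither the vector nor its promoter, nor say whether the cells were a clone or a pool, and they give no age, time or growth condition for the cultures. They do not say whether the replicates of a group were separate cultures, so the spread behind each p-value is that of these libraries and may be technical.

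Before S phase, the origin recognition complex, CDC6 and CDT1 load the ring of MCM2 to MCM7 onto DNA. In S phase CDC45 and GINS turn this ring into the active helicase, polymerase alpha with its primase starts new strands, and polymerases delta and epsilon extend them on the PCNA clamp. Most of these genes are transcribed as cells pass from G1 into S phase, when RB proteins release E2F factors, so that their RNA in a culture is widely used as a reading of how many of its cells are cycling. In bulk RNA, a smaller share of cells in S phase and less of the RNA per cell cannot be told apart.

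Library depth ranged from 20639543 to 30227070 counts, and the members had from 89 to 5649 counts in a library. Levels are given as CPM (counts scaled to a common library total), scaled between libraries by the trimmed mean of M values (TMM), unless FPKM is named. ETV5 had 0.718 and 1.29 CPM in Control replicates 1 and 2, against 23.9 and 21.8 CPM in ETV5_OE replicates 1 and 2. Luminal prostate markers were present in every library, with the kallikrein KLK3 at 2105 to 3732 CPM. The basal markers KRT5, KRT14 and TP63 were not among the genes of the deposited table, which all had at least 1 read in each library. The 6 stromal, endothelial and immune markers in the table, of 13 listed, summed to 30.7 and 25.1 CPM in the Control libraries and to 103 and 34.1 CPM in the ETV5_OE pair. DCN, LUM, PECAM1, CDH5, PTPRC, CD3E and LYZ were not in the table. RNA of the 6 markers does not show that other cells were present, and its part in the results below was not tested. The share of mitochondrially encoded RNAs was 0.218% and 0.231% in the Control pair and 0.126% and 0.200% in the ETV5_OE pair.

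The module as a whole stood lowest in Control replicate 2. Summed over the 49 genes it reached 2375 CPM in Control replicate 1, 1585 CPM in Control replicate 2, 2671 CPM in ETV5_OE replicate 1 and 2070 CPM in ETV5_OE replicate 2. Both ETV5_OE libraries therefore lay above Control replicate 2, and Control replicate 1 lay between them, so that the groups overlapped. The group means were 1980 ± 559 CPM (SD, n = 2) for Control, and 2371 ± 425 CPM (SD, n = 2) for ETV5_OE. Gene by gene, Control replicate 2 was the lowest library for 43 of 49 members, against 27.3% of all genes tested. ETV5_OE replicate 1 was the highest for 28 members, against 25.6%, and for 27 members it was the highest while Control replicate 2 was the lowest, against 10.3%. For 22 members the order from high to low was ETV5_OE replicate 1, Control replicate 1, ETV5_OE replicate 2, Control replicate 2, an order held by 5.05% of all genes tested. For a further 14 members it was Control replicate 1, ETV5_OE replicate 1, ETV5_OE replicate 2, Control replicate 2, held by 4.98% of all genes tested.

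**Figure D1:**
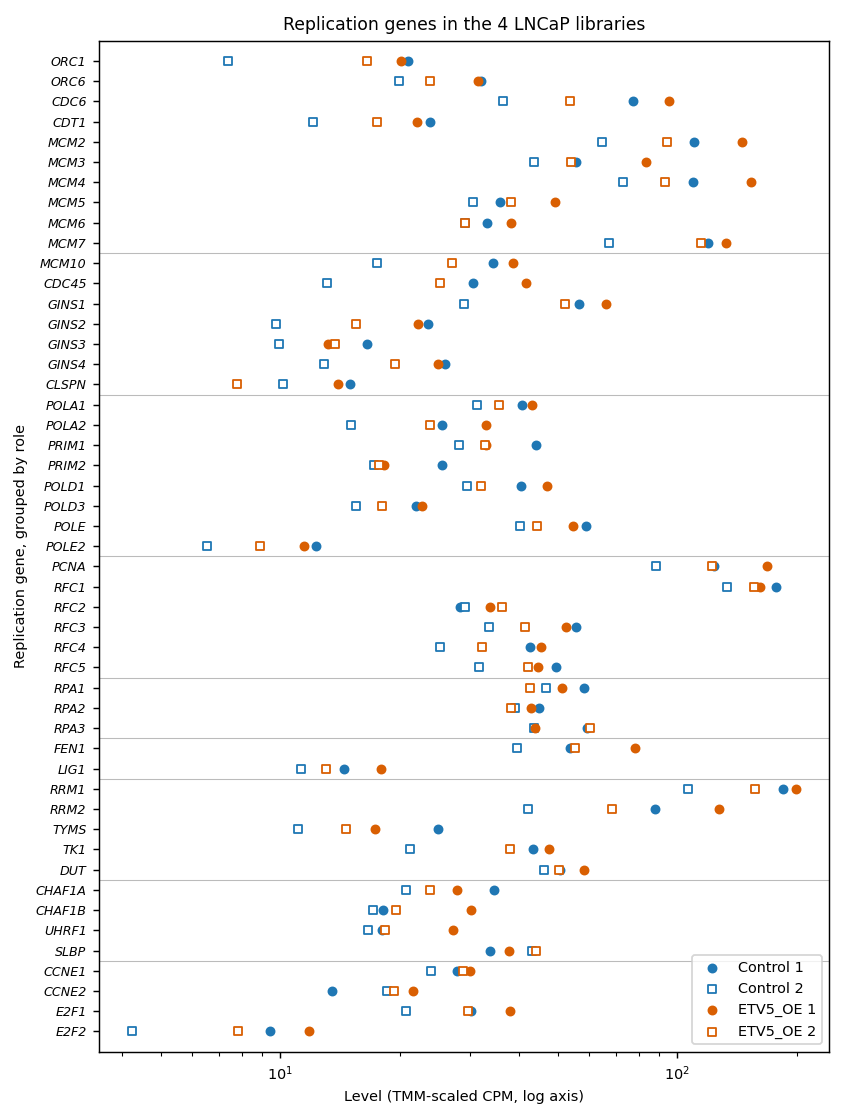
Level of each replication gene in each library, as TMM-scaled CPM on a log axis, with genes grouped by role and separated by grey lines (circles for replicate 1, open squares for replicate 2, blue for Control, orange for ETV5_OE). The open blue squares of Control replicate 2 lie furthest to the left for 43 of the 49 genes.

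E2F sites near the transcription start are the feature that these genes are known to share, so promoter windows of 250 bases before and 50 after the start (RefSeq, GRCh38.p14) were searched on both strands for the letters TTTCCCGC, TTTCGCGC, TTTGCCGC and TTTGGCGC. Windows were at hand for 42 of the 49 members. A match lay in a window of 22 of these 42 genes (52.4%), against 6.68% of the 11753 tested genes with a window. The CHR element of late cell cycle genes, searched as TTTGAA or TTCGAA, lay in 3 of the 42 (7.14%), against 15.2% of tested genes, and overlapped no E2F match. A match is a description of letters and not a bound site. The 200 bases before the start are shown for 4 members, with E2F matches in capitals, each 5′ to 3′ on the strand of the gene.
MCM6, the helicase subunit with 2 sites that match on both strands, minus strand, chr2:135876444-135876643: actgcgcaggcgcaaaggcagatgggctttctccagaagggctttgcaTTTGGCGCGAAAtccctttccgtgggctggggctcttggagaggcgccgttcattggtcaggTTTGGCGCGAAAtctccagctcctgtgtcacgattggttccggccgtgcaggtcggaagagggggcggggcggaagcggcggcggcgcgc
E2F1, the E2F factor itself, minus strand, chr20:33686386-33686585: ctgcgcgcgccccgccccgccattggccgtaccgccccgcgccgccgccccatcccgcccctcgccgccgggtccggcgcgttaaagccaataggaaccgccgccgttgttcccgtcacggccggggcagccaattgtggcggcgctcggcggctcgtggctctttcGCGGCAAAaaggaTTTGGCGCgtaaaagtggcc
GINS2, which had the largest difference between the Control libraries among members with a match, minus strand, chr16:85688955-85689154: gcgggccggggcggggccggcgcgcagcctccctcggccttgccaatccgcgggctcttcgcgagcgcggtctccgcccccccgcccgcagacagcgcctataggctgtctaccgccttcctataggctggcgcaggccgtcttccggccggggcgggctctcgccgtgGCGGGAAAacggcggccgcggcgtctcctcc
SLBP, which has no match and stood higher in Control replicate 2, minus strand, chr4:1712320-1712519: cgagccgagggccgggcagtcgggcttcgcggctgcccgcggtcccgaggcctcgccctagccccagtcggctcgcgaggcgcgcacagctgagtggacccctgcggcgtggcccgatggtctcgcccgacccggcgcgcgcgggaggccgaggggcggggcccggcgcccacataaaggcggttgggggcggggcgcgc

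In MCM6 each match on one strand overlaps a match on the other, so the 4 matches form 2 blocks in the window. In E2F1 and GINS2 the matches lie close to the start. The members with a match had a median ratio of Control replicate 1 over Control replicate 2 of 1.66 (n = 22, from 1.08 to 2.41), and those without 1.56 (n = 20, from 0.784 to 2.83), so the ranges overlapped almost fully.

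The Control libraries differed across most of the module. Control replicate 1 stood above Control replicate 2 in 46 of 49 members, against 48.9% of all genes tested, and by more than 1.5-fold in 25 of 49, against 12.0%. More than 2-fold above were 9 of 49, against 5.65%. No member stood more than 1.5-fold the other way, as 9.93% of all genes did. The median ratio over the members was 1.5, with 0.99 over all genes tested, and the summed level was 1.499-fold higher (95% exact interval 1.48 to 1.52, which covers counting error only). With 1 library on each side there is no test of this difference, and it compares the libraries, not a condition. For 44 members the counting interval of the ratio lay above 1, for 2 (SLBP and CCNE2) below 1, and for 3 (RFC2, CHAF1B and UHRF1) it held 1.

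Among the licensing genes, ORC1, the large ATPase subunit of the origin recognition complex (chromosome 1, 52372829 to 52409503), had 20.9 and 7.40 CPM in Control replicates 1 and 2, against 20.2 and 16.5 CPM in ETV5_OE replicates 1 and 2. Its ratio of 2.83 between the Control libraries (95% interval 2.37 to 3.40) was the largest of the module. ORC6, the smallest subunit, had 32.0, 19.9, 31.4 and 23.9 CPM in the same order of libraries. CDC6, the ATPase that brings the MCM ring to the origin (chromosome 17, 40287879 to 40304657), had 77.2 and 36.4 CPM in the Control pair and 95.4 and 53.6 CPM in the ETV5_OE pair. Its lower library in each pair was replicate 2, and the ETV5_OE values straddled Control replicate 1. CDT1, the loading factor that is destroyed once S phase begins, had 23.9, 12.1, 22.1 and 17.5 CPM.

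The 6 subunits of the MCM ring did not differ equally between the Control libraries. MCM7 (chromosome 7, 100092728 to 100101397) had 119 and 67.3 CPM there and 133 and 115 CPM in the ETV5_OE pair, a Control ratio of 1.77. MCM2 had 110 and 64.5 CPM in the Control pair and 145 and 94.1 CPM in the ETV5_OE pair, with a Control ratio of 1.71. MCM4 stood at 109, 73.0, 154 and 93.2 CPM. For these subunits Control replicate 2 was the lowest library and ETV5_OE replicate 1 the highest. MCM3, with 55.7, 43.5, 83.4 and 54.1 CPM, had a smaller Control ratio of 1.28. MCM5 and MCM6 had ratios of 1.17 and 1.14, and MCM6 had 33.1, 29.2, 38.1 and 29.2 CPM, so that both replicate 2 libraries were level.

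The factors that activate the ring had a median Control ratio of 1.96 over 7 genes, with 6 of 7 past 1.5-fold. CDC45, which joins the ring to make the moving helicase (chromosome 22, 19479466 to 19520612), had 30.7 and 13.1 CPM in Control replicates 1 and 2, against 41.6 and 25.3 CPM in ETV5_OE replicates 1 and 2. GINS2, a subunit of the GINS tetramer, had 23.5, 9.78, 22.3 and 15.5 CPM. GINS1 (chromosome 20, 25407673 to 25448563) had 56.6 and 29.1 CPM in the Control pair and 66.0 and 52.2 CPM in the ETV5_OE pair, and GINS4 had a Control ratio of 2.02. In each of these genes Control replicate 2 was the lowest library. GINS3 was flat within the ETV5_OE pair, with 13.2 and 13.7 CPM, while the Control pair had 16.6 and 9.93 CPM. MCM10, which helps start the helicase, had a Control ratio of 1.96, and CLSPN, the fork protein claspin that carries checkpoint signals, one of 1.47. Claspin was the member of this role whose lowest library was ETV5_OE replicate 2, at 7.81 CPM against at least 10.2 CPM elsewhere.

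Polymerase and primase genes differed by less. Their Control ratios ran from 1.30 in POLA1, the catalytic subunit of polymerase alpha, to 1.88 in POLE2, an accessory subunit of polymerase epsilon, with 3 of 8 past 1.5-fold. POLE2 had 12.3, 6.54, 11.5 and 8.89 CPM. The primase subunits stood out by their ETV5_OE values: PRIM1 had 44.0 and 28.2 CPM in the Control pair and 33.1 and 32.8 CPM in the ETV5_OE pair, and PRIM2 had 25.5, 17.3, 18.3 and 17.8 CPM. In both primase genes Control replicate 1 was the high library and the ETV5_OE libraries were level with each other. POLE, the catalytic subunit of polymerase epsilon, had 59.1, 40.2, 54.6 and 44.3 CPM, and POLD1, that of polymerase delta, had a ratio of 1.37 in the Control pair and 1.47 in the ETV5_OE pair.

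The PCNA clamp, which tethers the polymerases to DNA (chromosome 20, 5114953 to 5126622), had 124 and 88.4 CPM in the Control pair and 169 and 123 CPM in the ETV5_OE pair. Here the lower ETV5_OE library was level with the higher Control library. Of the 5 clamp loader subunits, RFC3, RFC4 and RFC5 had Control ratios of 1.65, 1.69 and 1.56, and the large subunit RFC1 one of 1.33. RFC2 was the exception, with 28.3 and 29.2 CPM in the Control pair and 33.8 and 36.2 CPM in the ETV5_OE pair. Its libraries agreed within each group and the groups did not overlap. The single-stranded DNA binding subunits RPA1, RPA2 and RPA3, which also serve DNA repair, had Control ratios of 1.24, 1.15 and 1.36. RPA3 was higher in ETV5_OE replicate 2 (60.4 CPM) than in replicate 1 (43.8 CPM), the reverse of most members. FEN1, the flap nuclease of Okazaki fragments (chromosome 11, 61792911 to 61797238), had 53.7, 39.6, 78.1 and 55.4 CPM, and the ligase LIG1 had 14.4, 11.3, 17.9 and 13.1 CPM.

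Nucleotide supply genes other than DUT had Control ratios past 1.5-fold, while that of DUT was small. RRM2, the S phase subunit of ribonucleotide reductase (chromosome 2, 10122568 to 10211010), had 88.1 and 42.1 CPM in Control replicates 1 and 2, against 128 and 68.7 CPM in ETV5_OE replicates 1 and 2. Replicate 1 was the higher library in both groups, with ratios of 2.09 and 1.86. RRM1, the large subunit, had 184, 107, 199 and 157 CPM. The thymidine kinase TK1 (chromosome 17, 78174079 to 78187204) had 43.2 and 21.2 CPM in the Control pair and 47.6 and 38.0 CPM in the ETV5_OE pair. Thymidylate synthase, TYMS, had 25.02, 11.1, 17.3 and 14.7 CPM, so that Control replicate 1 was highest and Control replicate 2 lowest. The dUTPase DUT had 50.7, 46.1, 58.4 and 50.3 CPM, with all libraries close.

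Cyclin E2 and SLBP differed from most members in the direction of the Control pair, and CHAF1B, UHRF1 and cyclin E1 had small Control ratios. Cyclin E2, CCNE2, had 13.5 and 18.6 CPM in Control replicates 1 and 2, against 21.6 and 19.4 CPM in ETV5_OE replicates 1 and 2. The histone mRNA binding protein SLBP had 33.8 and 43.1 CPM in the Control pair and 37.7 and 44.1 CPM in the ETV5_OE pair. Control replicate 1 was the lowest library for both, with Control ratios of 0.729 (95% interval 0.633 to 0.839) and 0.784 (0.716 to 0.858). Cyclin E1, CCNE1, had 28.0, 24.0, 30.0 and 28.8 CPM. CHAF1B, the middle subunit of the histone chaperone CAF-1 (chromosome 21, 36385392 to 36419015), had 18.2 and 17.1 CPM in the Control pair and 30.2 and 19.6 CPM in the ETV5_OE pair. UHRF1, which guides DNA methylation to new strands, had 18.1, 16.7, 27.3 and 18.4 CPM. In both genes ETV5_OE replicate 1 was the high library. The large CAF-1 subunit CHAF1A was unlike CHAF1B, with 34.6 and 20.8 CPM in the Control pair and 27.9 and 23.9 CPM in the ETV5_OE pair. The E2F factors themselves followed the module: E2F1 (chromosome 20, 33675477 to 33686385) had 30.3, 20.8, 37.8 and 29.7 CPM, and E2F2 had 9.43, 4.25, 11.8 and 7.85 CPM.

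Counts of some members can hold reads of another gene. In GENCODE v29, exons of 6 members share over 20% of their bases with another gene, and the sources used here do not say whether counting used strand. TYMS shares 39.1% with ENOSF1 and CCNE2 shares 37.0% with INTS8, both on the opposite strand. ENOSF1 and INTS8 had Control ratios of 1.03 and 1.04. The other members are MCM2 and GINS4, with overlap on the opposite strand, and POLA2 and RRM2, with overlap on the same strand. POLA2 shares 35.1% and RRM2 20.2% with another protein-coding gene, and counting by strand would not separate these. The direction between the Control libraries also depended on the unit for 3 members: POLA1 and RPA1 had Control ratios of 1.30 and 1.24 by CPM but 0.875 and 0.946 by deposited FPKM, and SLBP 0.784 by CPM but 1.15 by FPKM.

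The ETV5_OE libraries differed in the same direction by number, and by less. ETV5_OE replicate 1 stood above replicate 2 in 45 of 49 members, against 49.9% of all genes tested, and by more than 1.5-fold in 9 of 49, against 8.66%. Past 1.5-fold the other way there was none, against 9.51%. The median ratio was 1.27 and the summed level 1.29-fold higher (95% exact interval 1.28 to 1.31, counting error only). RRM2 (1.86), CLSPN (1.80), CDC6 (1.78), MCM4 (1.65) and CDC45 (1.64) had the largest ratios. Past 1.5-fold in both pairs were 6 of 49 members, against 2.19% of all genes tested. ETV5_OE replicate 1 also held the collagen RNA COL1A2 at 41.4 CPM, against 0.0835 to 1.72 CPM elsewhere, and its part was not tested. Across the 49 members, the log2 ratios of both pairs had a Pearson correlation of 0.36 and a Spearman correlation of 0.30. Over all genes tested the Pearson correlation was 0.0066. These values are a description across genes that share libraries and depth.

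Mitosis genes were compared as the next step of the cycle. All 35 listed were over 1.5-fold higher in Control replicate 1, against 12.0% of all genes tested. In the Control pair they differed more than the replication genes, with a median ratio of 2.88. The mitotic kinesin KIF20A had 63.4 and 13.8 CPM there, and the kinase AURKB 19.8 and 4.34 CPM. In the ETV5_OE pair they did not share the tilt of the replication genes. Their median ratio was 0.89, with 14 of 35 higher in replicate 1, against 49.9% of all genes tested, and KIF20A had 32.6 and 41.7 CPM. The summed mitosis level was 2982 and 1072 CPM in the Control pair and 2213 and 2344 CPM in the ETV5_OE pair. The difference between these lists was not tested. Histone genes with cluster symbols (HIST1H to HIST4H), which S phase cells express to package new DNA, had a median Control ratio of 2.86 over 61 genes and one of 1.30 in the ETV5_OE pair. HIST1H1B had 342, 59.8, 440 and 225 CPM.

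**Figure D2:**
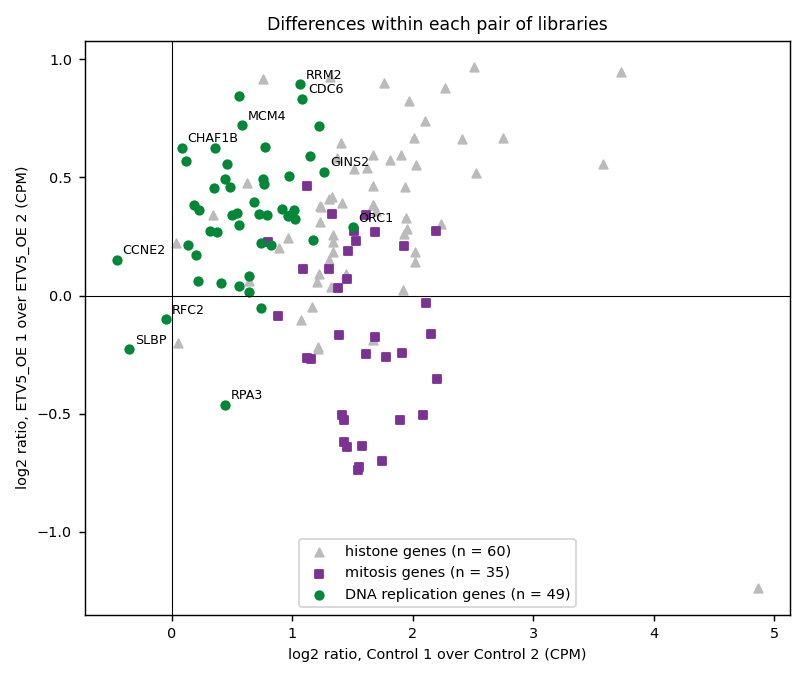
Ratio of replicate 1 over replicate 2 on the log2 scale, in the Control pair (x axis) and the ETV5_OE pair (y axis), for each replication gene (green circles), mitosis gene (purple squares) and tested histone gene (grey triangles). Replication genes lie mostly above and to the right of 0 (46 and 45 of 49), while mitosis genes are all to the right of 0 and lie on both sides of it on the y axis.

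Other lists were also set beside this difference between the Control libraries. Of 14 amino acid stress genes, which respond to poor nutrient supply, 13 were higher in Control replicate 1, against 48.9% of all genes tested. Their median ratio was 1.74, and the stress factor DDIT3 had 526 and 87.1 CPM in the Control pair and 372 and 222 CPM in the ETV5_OE pair. Luminal markers had a median ratio of 0.92 in the Control pair over 13 genes. None was over 1.5-fold higher in Control replicate 1, against 12.0% of all genes tested. Over 1.5-fold higher in Control replicate 2 were 2 of 13, ACPP and SLC45A3 (1.70-fold and 1.57-fold), against 9.93%. The part of culture state or library making in the difference was not tested, and the labels record neither.

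ETV5_OE against Control, which asks whether raised ETV5 changes these genes, gave no call among the members. By edgeR's quasi-likelihood test with Benjamini-Hochberg adjustment over all genes, 0 of 49 passed an adjusted p of 0.05, where 0.401% of all genes tested did (0.253% higher, 0.148% lower). At an unadjusted p under 0.05 the count was also 0 of 49, against 3.63% of all genes higher and 3.51% lower, and DESeq2 and limma-voom called 0 of 49 too. The smallest adjusted p of a member was 0.701. The fitted fold change was above 0 for 41 of 49 members, against 50.6% of all genes tested, with a median log2 fold change of 0.19 where that of all genes tested was 0.00. The members ranged from -0.25 in PRIM2 to 0.60 in CDC45. For 42 of 49 members the libraries of both groups overlapped by CPM. A miss does not show that the genes were at the same level. Of 13 luminal markers, 9 had both ETV5_OE libraries below both Control libraries, against 18.8% of all genes tested. KRT18 had both above, and FOLH1, HOXB13 and KRT8 overlapped. The summed levels, with KLK3 the largest part, were 8522 and 9250 CPM in the Control pair and 6211 and 6857 CPM in the ETV5_OE pair. The part of these markers was not tested.

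FEN1 had the smallest p, with 46.7 ± 10.03 CPM (SD, n = 2) in Control, 66.8 ± 16.01 CPM in ETV5_OE, and a log2 fold change of 0.52 (SE 0.22, edgeR adjusted p = 0.701). PCNA had 106 ± 24.97 and 146 ± 32.6 CPM, a log2 fold change of 0.46 (SE 0.22, adjusted p = 0.767 by edgeR). MCM5 (chromosome 22, 35400140 to 35455031) had 33.2 ± 3.62 and 43.7 ± 7.73 CPM, with all libraries of ETV5_OE above those of Control and a log2 fold change of 0.40 (SE 0.19, edgeR adjusted p = 0.745). CHAF1B had a log2 fold change of 0.49 (SE 0.24, edgeR adjusted p = 0.761) and POLA2, the regulatory subunit of polymerase alpha, 0.48 (SE 0.29, adjusted p = 0.829). For GINS1 it was 0.46 (SE 0.35), for TK1 0.40 (SE 0.36), for E2F1 0.40 (SE 0.23) and for RPA1 -0.16 (SE 0.18), and their edgeR adjusted p lay between 0.808 and 0.924. Of these genes MCM5, FEN1 and CHAF1B had groups that did not overlap by CPM. By FPKM those of FEN1 and CHAF1B overlapped, and those of RPA1 did not, with ETV5_OE lower.

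By CPM, both ETV5_OE libraries stood above both Control libraries for 7 of 49 members, against 18.8% of all genes tested, and below for none, against 18.8%. The 7, a smaller share than that of all genes, were MCM5, RFC2, FEN1, CHAF1B, UHRF1, CCNE1 and CCNE2. By deposited FPKM only MCM5 and RFC2 of the 7 kept this separation, and the groups overlapped for the others. Also by FPKM, both ETV5_OE libraries lay below both Control libraries for RPA1 and PRIM2. RPA1 had 11.6 and 12.3 FPKM in the Control pair and 10.1 and 8.31 FPKM in the ETV5_OE pair. PRIM2 had 10.7 and 7.69 FPKM, against 7.66 and 6.96 FPKM. The share of all genes separated by FPKM was not counted. CCNE1 and CCNE2, which drive CDK2 at the G1 to S boundary, had log2 fold changes of 0.18 (SE 0.17) and 0.35 (SE 0.22). RFC2, with 28.8 ± 0.633 CPM in Control and 35.0 ± 1.70 CPM in ETV5_OE, had one of 0.28 (SE 0.16, edgeR adjusted p = 0.808). In the authors' deposited table RFC2 was the 1 member with an unadjusted p under 0.05, a fold of 1.25 with p = 0.00721, and 41 of 49 members had a positive fold there. By role, every member had a fitted change above 0 among the licensing genes (10 of 10, median 0.39), the clamp and loader (6 of 6, 0.14), Okazaki maturation (2 of 2, 0.39) and the S phase regulators (4 of 4, 0.38). It was above 0 for 6 of 7 helicase activators (0.19), 5 of 8 polymerase and primase genes (0.11), 4 of 5 nucleotide supply genes (0.29), 3 of 4 chromatin genes (0.24) and 1 of 3 RPA genes (-0.05).

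The direction of the module depended on the Control libraries. Without Control replicate 1 the median log2 fold change was 0.51, with 48 of 49 members above 0 (51.2% of all genes), and 2 members passed as higher by edgeR, MCM7 (log2 fold change 0.88, adjusted p = 0.0361) and GINS1 (1.02, adjusted p = 0.0470), where 1.16% of all genes did. At an unadjusted p under 0.05, 20 members were then higher, against 6.49% of all genes tested. Without Control replicate 2 the median was -0.05, with 22 members above 0 (51.4% of all genes) and 27 below, none passed as higher (0.594% of all genes), and MCM7 and GINS1 were at 0.05 and 0.06. At an unadjusted p under 0.05, TYMS (-0.65) and PRIM2 (-0.50) were then lower and CCNE2 higher, where 3.53% of all genes were lower and 4.26% higher. CCNE2 moved from 0.14 without Control replicate 1 to 0.60 without Control replicate 2. Without ETV5_OE replicate 1 the median was 0.05 and without ETV5_OE replicate 2 it was 0.40, with no member called. In the second of these, 7 members were higher at an unadjusted p under 0.05, against 2.71% of all genes. Above 0 both without Control replicate 1 and without Control replicate 2 were 21 of 49 members, with MCM5, CHAF1B, FEN1 and RFC2 among them. The share of all genes above 0 in both was not counted. For the named genes this largely follows from their groups not overlapping by CPM and is no further support.

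**Figure D3:**
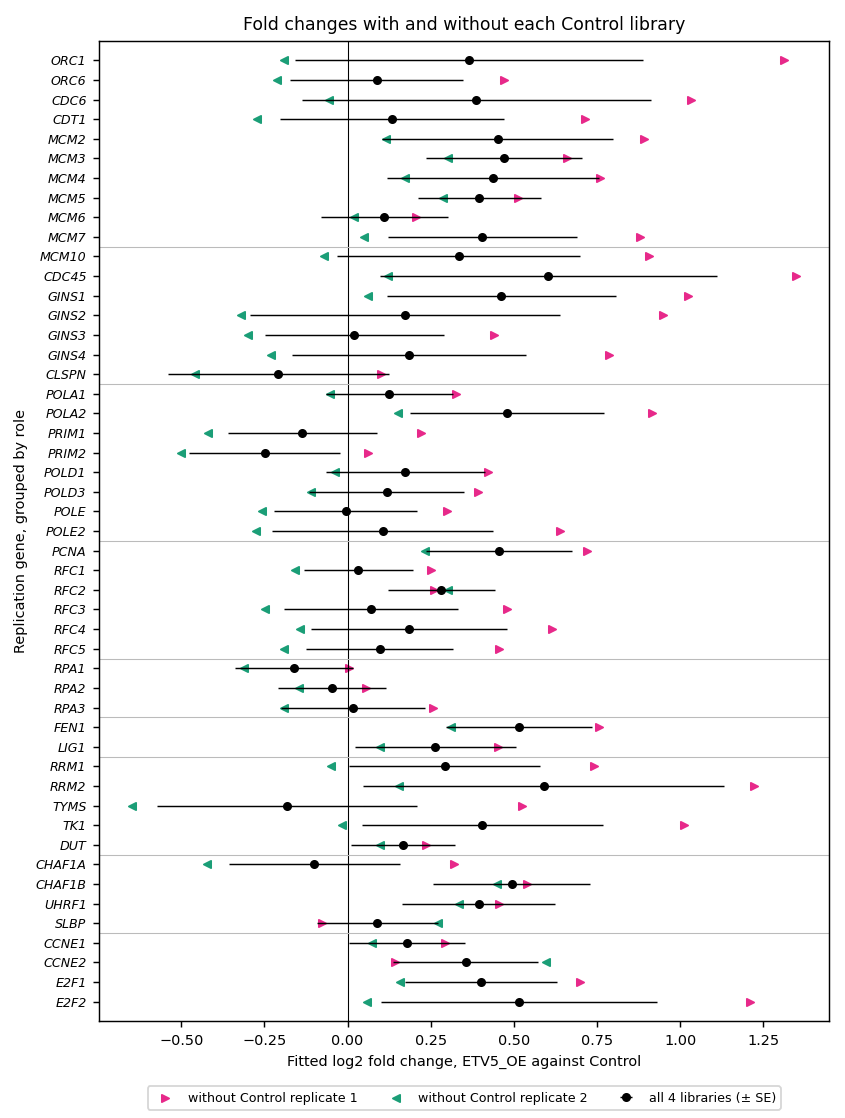
Fitted log2 fold change of each replication gene in ETV5_OE against Control with all 4 libraries (black points, bars ± SE), without Control replicate 1 (pink) and without Control replicate 2 (green), genes grouped by role. Pink points lie above 0 for 48 of 49 genes and green points for 22.

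Subunits of 1 complex were compared per transcript length, by deposited FPKM. Within a complex the highest subunit was the same in every library except in RPA, while the lowest changed between libraries in GINS, the clamp loader and polymerase alpha-primase. PCNA had the highest level of the module (mean over libraries 92.6 FPKM), then RRM1 (49.2 FPKM) and MCM7 (38.1 FPKM), and E2F2 (1.67 FPKM) and CLSPN (1.56 FPKM) had the lowest. In the MCM ring, whose subunits assemble in equal number, MCM7 was highest and MCM6 lowest in every library, with 40.0 and 8.53 FPKM in Control replicate 1, 24.6 and 7.51 in Control replicate 2, 47.8 and 9.67 in ETV5_OE replicate 1, and 39.9 and 7.21 in ETV5_OE replicate 2. The spread between subunits was therefore 3.28-fold to 5.53-fold and narrowest in Control replicate 2. GINS1 was the highest GINS subunit in every library, 2.49-fold to 3.21-fold above the lowest, and RFC1 the highest loader subunit, 1.63-fold to 2.15-fold above the lowest. PRIM1 exceeded the lowest polymerase alpha-primase subunit by 2.89-fold to 4.27-fold. In ribonucleotide reductase the large subunit RRM1 exceeded RRM2 in every library, by 2.18-fold and 2.64-fold in Control replicates 1 and 2, and by 1.62-fold and 2.38-fold in ETV5_OE replicates 1 and 2. In CAF-1, CHAF1A exceeded CHAF1B by 2.23-fold and 1.58-fold in the Control libraries and by 1.11-fold and 1.60-fold in the ETV5_OE libraries. In RPA, RPA1 was lowest in every library, and the highest was RPA3 in Control replicate 1 and ETV5_OE replicate 2 and RPA2 in the others. RNA levels do not give the amounts of the proteins.

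**Figure D4:**
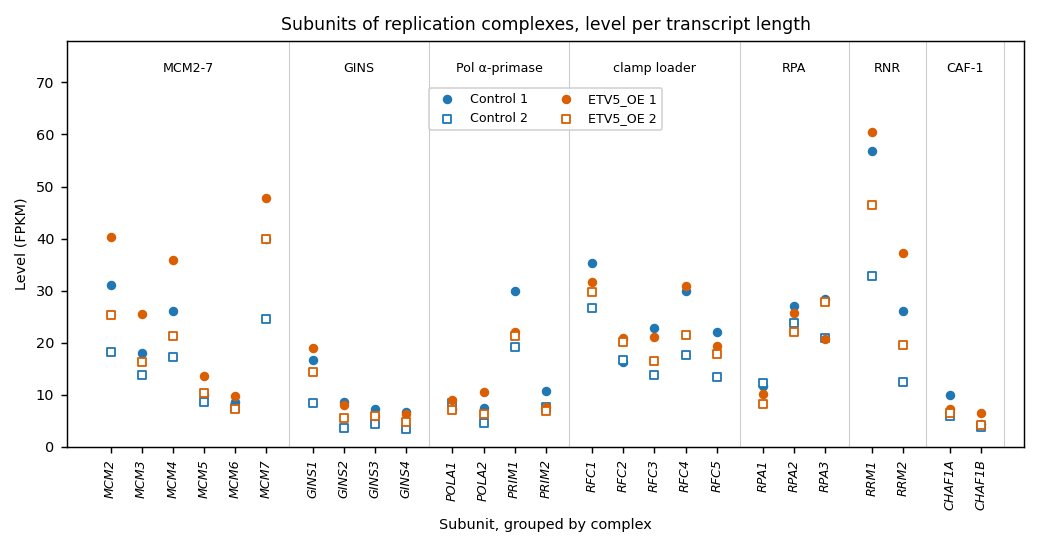
Deposited FPKM of the subunits of 7 replication complexes in each library (circles for replicate 1, open squares for replicate 2, blue for Control, orange for ETV5_OE; RNR is ribonucleotide reductase). MCM7 and MCM6 are the highest and lowest subunit of the MCM ring in every library, and RRM1 lies above RRM2 in each.

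Replication factors outside the 49 genes were less uneven between the Control libraries. Of 40 other replication factors, 33 were higher in Control replicate 1, against 48.9% of all genes tested, with a median ratio of 1.20. By over 1.5-fold it was 14 of 40, against 12.0%. DSCC1, part of the cohesion clamp loader, had 19.2, 8.73, 17.8 and 19.9 CPM, and DBF4, the activator of the CDC7 kinase, 37.0, 17.3, 24.97 and 28.1 CPM. In both, Control replicate 2 was low and the ETV5_OE libraries were close to each other. In ETV5_OE against Control, 0 of 40 passed by edgeR, against 0.401% of all genes tested, and their median log2 fold change was 0.10. At an unadjusted p under 0.05 there was 1 of 40, where 3.63% of all genes were higher and 3.51% lower. It was POLD2, the second subunit of polymerase delta, with 104, 88.4, 125 and 132 CPM (log2 fold change 0.42, edgeR adjusted p = 0.521).

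Of 24 other nucleotide synthesis enzymes, 17 were higher in Control replicate 1, against 48.9% of all genes tested, with a median ratio of 1.09. In ETV5_OE against Control 0 of 24 passed by edgeR, against 0.401% of all genes tested. NME1, a nucleoside diphosphate kinase, was the 1 of 24 with an unadjusted p under 0.05. It had 91.4, 95.2, 130 and 124 CPM (log2 fold change 0.44, adjusted p = 0.405 by edgeR). Of 28 tested genes of G1 to S control, 0 passed, also at an unadjusted p under 0.05, and the median was 0.16. The repressor E2F7, itself an E2F target, had 16.8 and 6.06 CPM in the Control pair and 15.96 and 12.02 CPM in the ETV5_OE pair, and cyclin A2, CCNA2, had 45.2, 16.3, 38.9 and 34.9 CPM. The pocket protein RB1 had 74.0, 67.0, 92.6 and 80.9 CPM (log2 fold change 0.30, edgeR adjusted p = 0.765). E2F7 and CCNA2 thus had the low Control replicate 2 of the module, while the RB1 libraries of each group were close. Of the 35 mitosis genes and 60 tested histone genes, 0 passed by edgeR in ETV5_OE against Control, with 0 and 2 at an unadjusted p under 0.05. Beside the lists of this paragraph, 0.401% of all genes tested passed. At the unadjusted limit 3.63% of all genes were higher and 3.51% lower.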

How the data were processed

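RNA was measured by paired-end RNA sequencing in 4 LNCaP libraries, with total RNA extracted by TRIzol and a TruSeq kit, per the labels. The tools named per the submitters' processing notes were StringTie, HISAT2 and Trimmomatic, with build hg38. The deposited table holds raw read counts per gene and FPKM values, which the authors scaled by transcript length and library size, per the file headers. A signed fold score and an unadjusted p-value per gene were deposited beside them, and the sources used here do not give their test. Every listed gene had at least 1 read in each library.

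ETV5_OE was tested against Control on the counts in R 4.3.3 with edgeR 4.0.16, with the default expression filter (minimum count 10), TMM scaling and robust quasi-likelihood F tests, adjusted by Benjamini-Hochberg over 16194 genes with a threshold of 0.05. Each standard error is the fold change divided by the root of its F statistic. Pairs of libraries were compared by ratios of CPM with exact (Clopper-Pearson) 95% intervals from scipy 1.17.1, without a test. RefSeq coordinates were matched by gene ID for all 49 members. Alternatives used DESeq2 1.42.0, limma 3.58.1, other scalings and filters, FPKM values with genes at 1 or more in 2 libraries, blocks, and leaving out each library. The script was tested on simulated data. The members, lists and tests were chosen with earlier results of these data known. All 49 members may be named, and from other lists the 3 genes with the smallest p and the 3 with the largest Control ratio at a mean of 5 CPM or more. POLA2, MCM2, GINS4 and RRM2, and the partner genes ENOSF1 and INTS8, were named for shared exons after their values were seen.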

Additional observations from a re-analysis of the deposited data

How the results depend on the processing

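Of the members, 0 were called in every setting with all 4 libraries, and 0 to 2 when 1 library was left out. The number of all genes called, 65, was 223 with DESeq2, 38 with limma-voom, 22 without robust estimation, 13 with limma on FPKM values (pseudocount 1) and 11 with pseudocount 0.1, 32 with a block on the suffix R of the library names, and 4 to 259 when 1 library was left out. The cause was not tested. With a library left out, the lone library of its group is assumed to vary like the other group. The median log2 fold change of the members, 0.19, stayed within 0.14 to 0.26 in the other settings and ran from -0.0496 to 0.513 over the libraries left out. RPA1 ran from -0.310 to 0.00528 and TK1 from -0.0172 to 1.01 over the libraries left out, and GINS1 was called without Control replicate 1. The summed level of ETV5_OE replicate 1 over replicate 2, 1.29, was 1.27 with upper quartile scaling, 1.32 with total counts only and 1.32 with FPKM. With the replicate number as a block (replicate block), 55 genes and 0 members were called, and 13 members had an unadjusted p under 0.05, all higher, against 4.03% of all genes tested. The numbers are not stated to pair libraries. Across 16194 genes the log2 differences of replicate 1 and 2 in both groups had a correlation of 0.08, with 2 added to each CPM. With all 4 libraries, members changed sign in 5 settings: 3 with total counts only, 3 and 2 with FPKM values at pseudocounts 1 and 0.1, and 1 with each block.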
